A study of Arabidopsis thaliana with 18 samples.

Results

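The genes described here are those of the Arabidopsis thaliana chloroplast (plastid) genome, taken as every row of the expression table whose locus code starts with ATCG, which gave 133 of 33602 rows. Of these, 54 were at 0 in all libraries, 10 were above 0 in fewer than 9 libraries, and 69 were above 0 in at least 9 of the 18 libraries and are described. Among the 69 there were 8 pairs of rows with identical values, so that 61 profiles were distinct. The study compared Columbia seedlings labelled day 7 at 22 °C and 29 °C in 3 genotypes: wild type, the double mutant bbx18 bbx23, which lacks a pair of B-box proteins, and pif4, which lacks a transcription factor of warm-temperature growth. Each of the 6 groups had 3 libraries, made from total RNA with a TruSeq RNA kit. The labels do not say whether replicates came from separate sowings, so the tests measure the spread between these libraries. The sources used here do not give the mutant alleles, the light regime or the time spent at 29 °C. All levels are FPKM, the reads of a gene scaled by transcript length and library size.

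The plastid genome encodes core subunits of both photosystems, the cytochrome b6f complex, the ATP synthase, an NADH dehydrogenase-like complex, the large subunit of Rubisco, part of the plastid ribosome and a bacterial-type RNA polymerase. The remaining subunits of these complexes are encoded in the nucleus and imported, and nucleus-encoded sigma factors direct the plastid polymerase to its promoters. Plastid transcripts are mostly made as long multi-gene RNAs and, unlike nuclear mRNA, carry few stable poly(A) tails, so kits that select poly(A) RNA recover them poorly.

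The table gives locus codes without names. A name was used only where FPKM steps fitted the transcript length of that gene in the RefSeq plastid annotation better than any other plastid length, which was so for 48 of the 69 described codes. For 9 of the 48, a second plastid gene has the same length, and the standard locus list decided between them (psbA and psbD, atpF and ycf4, atpH and psaC, petD and rpl22, rps18 and ndhE). The other 21 codes are given by code below, and no role is read from them. They include the 4 most abundant rows and 4 of the 10 genes called below. For the 4 most abundant rows no score could be computed at the length of the listed gene, so length gave no answer on their names. The standard locus list gives ATCG00920 and ATCG01210 as the rRNA gene rrn16S, and ATCG00950 and ATCG01180 as the rRNA gene rrn23S. Of the called codes, it gives ATCG00480 as atpB, ATCG00190 as rpoB, ATCG00070 as psbK and ATCG01020 as rpl32, which length did not support. Counts of named genes per complex leave these rows out.

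Plastid transcripts made up little of these libraries. Summed over all 133 rows they came to between 235 and 425 FPKM, while the summed FPKM of all genes ran from 745000 to 1160000. In the wild type the sum was 322, 244 and 263 FPKM in the 3 libraries at 22 °C and 349, 290 and 251 at 29 °C. In bbx18 bbx23 it was 385, 406 and 355 FPKM at 22 °C and 248, 268 and 251 at 29 °C. In pif4 it was 312, 353 and 334 FPKM at 22 °C and 235, 425 and 385 at 29 °C. The temperature groups overlapped in the wild type and in pif4, and in bbx18 bbx23 all 3 libraries at 29 °C were below all 3 at 22 °C. The summed FPKM of all genes was itself lower on average at 29 °C in each genotype. Its mean went from 1050000 at 22 °C to 856000 at 29 °C in the wild type. In bbx18 bbx23 it went from 1090000 to 820000 and in pif4 from 1100000 to 856000. As a share of the summed FPKM of all genes, the pattern of the plastid rows was another. In bbx18 bbx23 the plastid share was 0.0382%, 0.0373% and 0.0305% at 22 °C and 0.0309%, 0.0312% and 0.0315% at 29 °C, which overlapped. For the wild type the shares at 22 °C were 0.0279%, 0.0268% and 0.0241% and those at 29 °C 0.0373%, 0.033% and 0.0333%, all higher. The log2 ratio of the group means, 29 °C to 22 °C, was 0.10 in the wild type, −0.58 in bbx18 bbx23 and 0.02 in pif4 for the sum, and 0.39, −0.17 and 0.39 for the share. No test was made of the sum or the share. The levels reflect only the transcripts captured. In whole seedlings, differences in plastids or green cells, in RNA per plastid and in the part of plastid RNA captured cannot be told apart.

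The difference in summed FPKM in bbx18 bbx23 was mostly in 4 rows. ATCG00920 and ATCG01210 had identical values, as had ATCG00950 and ATCG01180, and the 4 together held 42.3% to 73.3% of the plastid sum in a library. Their joint level in bbx18 bbx23 was 243 ± 23.6 FPKM (SD, n = 3) at 22 °C and 134 ± 7.89 FPKM at 29 °C. The other 129 rows together were at 139 ± 7.05 FPKM at 22 °C and 122 ± 8.63 FPKM at 29 °C in that genotype. None of the 4 rows was called in its own test there (for ATCG00920, log2 fold change −0.84 ± 0.31 SE, adjusted p 0.0869, and for ATCG00950, −0.85 ± 0.30, adjusted p 0.0777, limma). In pif4 at 29 °C replicate 1 stood apart from the others, with 110 FPKM in these rows against 298 and 282.

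**Figure D1:**
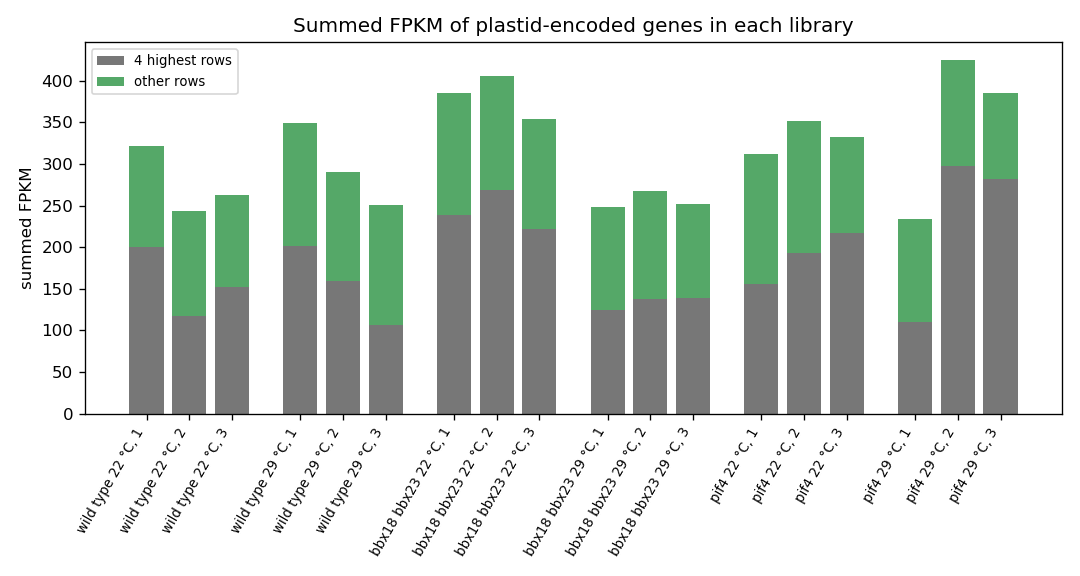
Summed FPKM of the plastid-encoded rows (vertical axis) in each of the 18 libraries, labelled by genotype, temperature and replicate. Grey is the sum of the 4 highest rows and green that of the other 129. The grey part runs from 106 to 298 FPKM and varies more between libraries than the green part, which runs from 103 to 159.

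The mitochondrial genome, the other organelle genome, showed another pattern. Its 146 rows summed to 25.7 to 49.4 FPKM in the 9 libraries at 22 °C and to 78 to 130 FPKM in the 9 at 29 °C, with no overlap. The ratio of the 129 plastid rows to the mitochondrial sum was, for the wild type, 3.50 ± 1.25 at 22 °C and 1.37 ± 0.436 at 29 °C (SD, n = 3). In bbx18 bbx23 it was 3.12 ± 0.527 and 1.27 ± 0.0117, and in pif4 3.40 ± 0.971 and 1.31 ± 0.283. No test was made of these ratios.

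By level, ATCG00920 led with a mean of 47.4 FPKM over the 18 libraries, followed by ATCG00950 at 45.0 and ATCG00480 at 18.3. The most abundant named gene was psbA, which encodes the D1 reaction centre protein of photosystem II, at 12.6 FPKM, followed by atpE, the epsilon subunit of the ATP synthase, at 10.9. Next came rpl2, a protein of the large ribosomal subunit listed in 2 identical rows, at 8.72, and clpP, the plastid-encoded protease subunit, at 8.70. Below 6 FPKM were ATCG01020 at 5.32, atpA at 5.21, rbcL at 5.05 and psbB at 4.78. Then followed atpI at 2.89, cemA at 2.72, atpF at 2.66, ATCG00630 at 2.40, psbC at 1.95 and atpH at 1.58. A mean of at least 1 FPKM was reached by 32 rows.

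Differences were tested with limma on log2(FPKM + 1) over the 19116 genes that reached 1 FPKM in at least 3 libraries, with Benjamini-Hochberg adjusted p under 0.05 as the call. A fold change on this scale understates the change of a gene near 1 FPKM. Of the 133 rows, 40 passed that filter (34 distinct profiles), 2 of which are not among the 69. In the warm response averaged over the 3 genotypes, 9 of the 40 were called, 3 higher and 6 lower at 29 °C. That is 22.5% of the tested plastid rows, where 38.7% of all genes tested were called (17.3% higher and 21.3% lower). Among the 9 are ATCG00070, which reached 1 FPKM only at 29 °C, and ATCG00190, which reached it only at 22 °C. Both passed the filter only through the temperature at which they were high and so had to differ. The other 38 rows reached 1 FPKM in some library at both temperatures. For petA, also among the 9 called, this was so in 9 libraries at 22 °C but in only 2 at 29 °C. It too met the filter of 3 libraries through 22 °C alone. The median log2 fold change was −0.09 over the 40 rows and −0.01 over all genes. With each library rescaled to the same summed FPKM, these medians moved to 0.17 and 0.29, and the called plastid rows became 9 higher and 2 lower. The share of all genes called after rescaling is not given here, so these counts are not read as a result about plastid genes. The falls of atpE, rbcL, cemA and ATCG00480 described below were then no longer called (−0.22, −0.17, −0.21 and −0.07), while those of petA and ATCG00190 were.

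**Figure D2:**
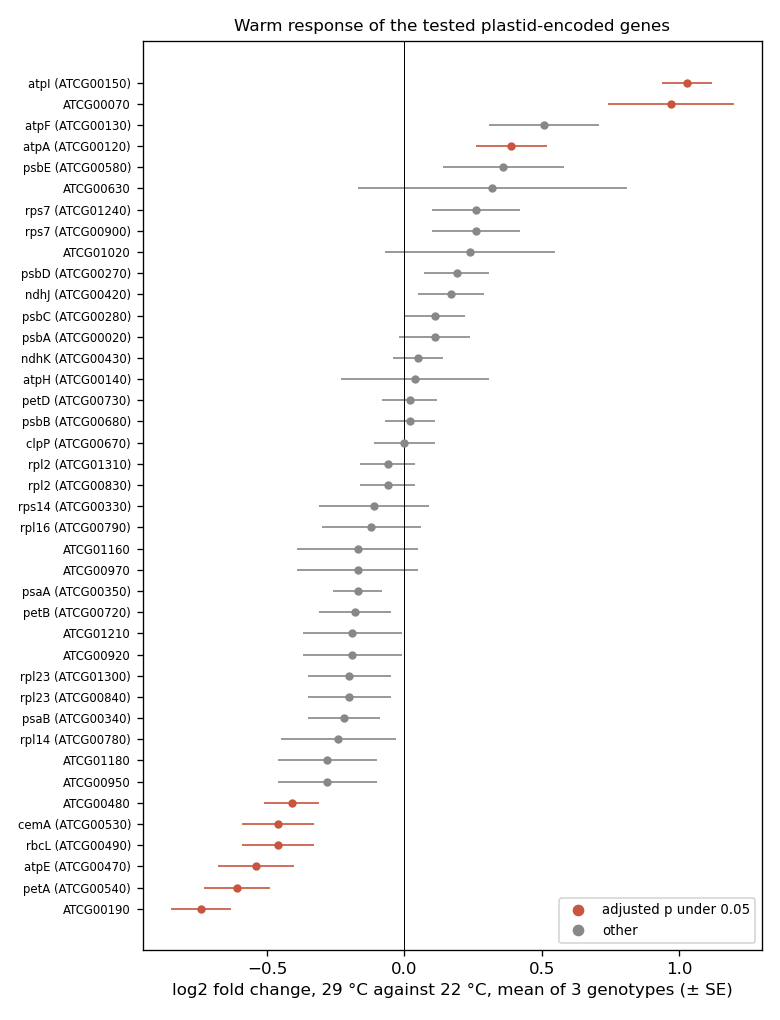
Log2 fold change at 29 °C against 22 °C, averaged over the 3 genotypes, with its standard error (horizontal axis) for each of the 40 tested plastid rows. Red points passed the adjusted p of 0.05. The highest is atpI at 1.03 and the lowest ATCG00190 at −0.74.

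The largest called rise in the averaged response was that of the ATP synthase gene atpI. The chloroplast ATP synthase makes ATP from the proton gradient across the thylakoid membrane. This gene encodes the membrane subunit a of its proton channel. Its level in the wild type was 1.53, 1.14 and 1.10 FPKM at 22 °C and 4.51, 3.97 and 5.01 FPKM at 29 °C. In bbx18 bbx23 it was 1.39, 2.20 and 1.15 FPKM at 22 °C and 3.55, 4.43 and 4.56 at 29 °C. In pif4 it was 2.15, 1.55 and 1.94 FPKM at 22 °C and 4.21, 4.18 and 3.38 at 29 °C. Every library at 29 °C was above every library at 22 °C, over all genotypes. The mean rose 3.57-fold in FPKM in the wild type, 2.65-fold in bbx18 bbx23 and 2.09-fold in pif4. The averaged log2 fold change was 1.03 ± 0.09 (SE, adjusted p 2.72e-07, limma), and atpI was called in each genotype alone (1.28, 1.02 and 0.77). The FPKM steps put 13 to 31 reads behind each value at 22 °C and 48.9 to 82 at 29 °C.

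The beginning of the atpI coding sequence is shown because chromosome 3 holds a copy of it. The copy, annotated as pseudogene AT3G33000, matched all 750 bases of atpI with 95.47% identity. It lies beside copies of rps2 and of parts of atpH and rpoC2. The first 90 bases are at Pltd:14681-14770 (minus strand) and at 3:13537762-13537851 (minus strand) in RefSeq TAIR10.1, and capitals mark the 2 bases that differ.
atpI: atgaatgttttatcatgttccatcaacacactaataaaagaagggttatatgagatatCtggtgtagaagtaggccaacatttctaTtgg
AT3G33000: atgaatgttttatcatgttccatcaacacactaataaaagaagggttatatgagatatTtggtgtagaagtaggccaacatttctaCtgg
Over the 750 aligned bases there were 34 differences, 1 in about 22.1 bases. The row of AT3G33000 was at 0 in 12 libraries and at most 0.101 FPKM in the others. The sources used here do not say how reads that fit both copies were assigned, and their part in the rise was not tested. The neighbouring plastid gene rps2, which has a like copy there, was at most 0.367 FPKM in any library and did not pass the filter. That level does not show how reads of atpI were assigned.

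A second ATP synthase gene, atpA, encoding the alpha subunit of the catalytic head, was also higher at 29 °C. In the wild type it was at 4.19, 5.31 and 3.41 FPKM at 22 °C and 7.92, 5.60 and 7.63 at 29 °C. In bbx18 bbx23 it was at 4.81, 4.52 and 3.39 FPKM and then 7.12, 5.54 and 5.20. In pif4 it was at 5.62, 5.69 and 2.53 FPKM and then 6.16, 5.10 and 3.97. The temperatures did not overlap in the first 2 genotypes and overlapped in pif4. The averaged log2 fold change was 0.39 ± 0.13 (adjusted p 0.0305, limma), and no genotype passed alone. The call was lost when 1 of 7 libraries was left out (replicate 3 at 22 °C in any genotype, replicate 1 at 29 °C in any genotype, or wild type replicate 3 at 29 °C), with an adjusted p of up to 0.149.

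The epsilon subunit gene atpE, by contrast, fell. In pif4 it was at 15.1, 16.1 and 10.01 FPKM at 22 °C and 9.97, 7.00 and 4.01 at 29 °C, with no overlap. In the wild type it was at 10.02, 15.2 and 13.3 FPKM and then 9.79, 7.80 and 11.5, which overlapped. In bbx18 bbx23 it was at 14.1, 9.63 and 13.9 FPKM and then 9.81, 10.02 and 8.98, which also overlapped. The averaged log2 fold change was −0.54 ± 0.14 (adjusted p 0.0072, limma), and pif4 was called alone (−0.93 ± 0.25, adjusted p 0.0217). The pif4 call was lost without replicate 1 or 2 at 22 °C or replicate 3 at 29 °C of pif4, with an adjusted p of up to 0.105. Of the 5 named ATP synthase genes, all tested, 2 rose and 1 fell, beside the 17.3% higher and 21.3% lower among all genes tested, and nothing particular to the complex is read from so few genes. The subunit genes atpF and atpH were not called, at 0.51 ± 0.20 (adjusted p 0.0513) and 0.04 ± 0.27 (adjusted p 0.916). The row ATCG00480 fell too, by 0.41 on the log2 scale (SE 0.10, adjusted p 0.00302), from 20.8 ± 2.30 FPKM at 22 °C to 15.7 ± 3.48 at 29 °C (SD, n = 9).

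**Figure D3:**
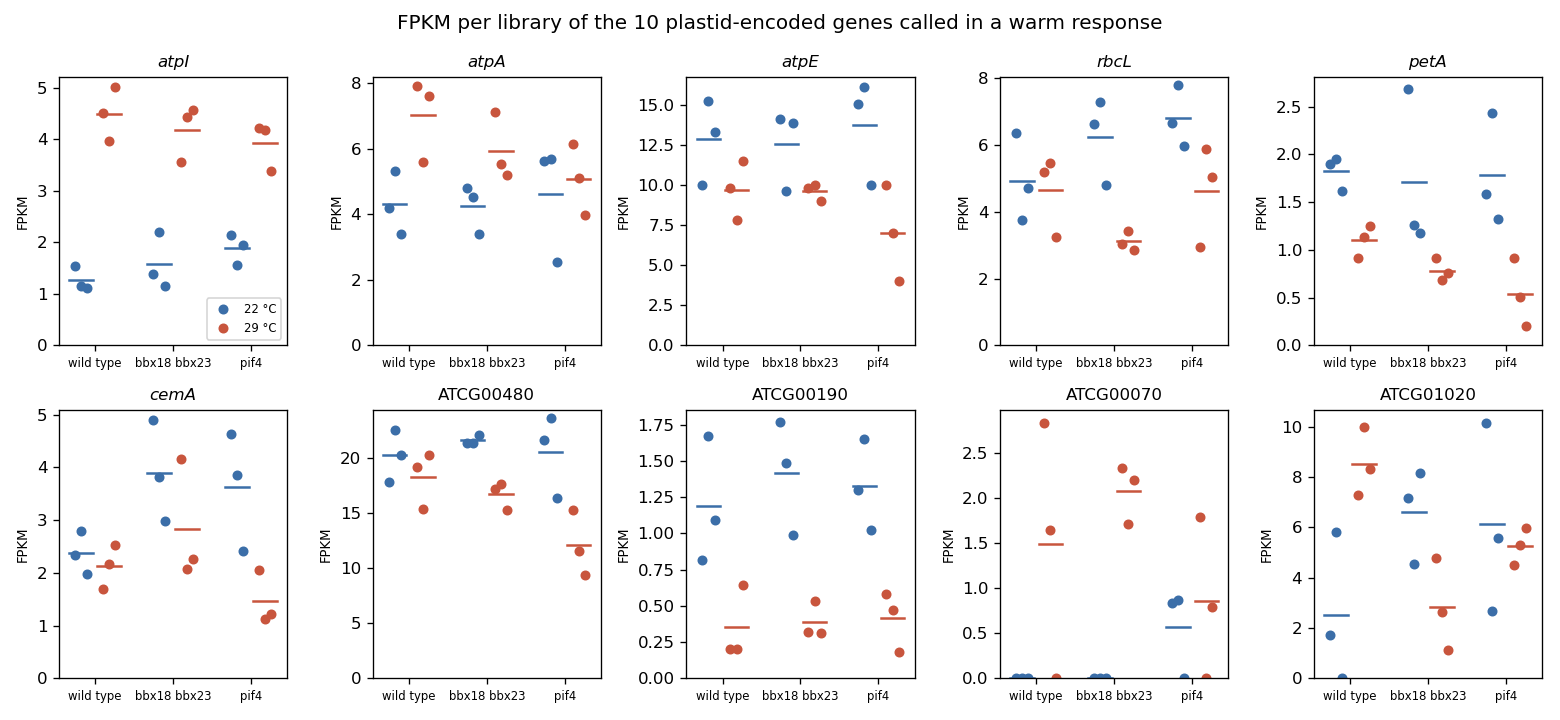
FPKM in each library (points) and group mean (lines) at 22 °C (blue) and 29 °C (red) for the 10 plastid-encoded genes called in at least 1 warm response, by genotype. The points of atpI at 29 °C, from 3.38 to 5.01, are all above those at 22 °C, from 1.10 to 2.20.

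The gene rbcL, which encodes the large subunit of the carbon-fixing enzyme Rubisco, fell. In bbx18 bbx23 it was at 6.63, 7.27 and 4.81 FPKM at 22 °C and 3.04, 3.44 and 2.85 at 29 °C. In pif4 it was at 6.66, 7.78 and 5.97 FPKM and then 2.93, 5.88 and 5.03. In the wild type it was at 6.36, 3.74 and 4.70 FPKM and then 5.20, 5.47 and 3.23. The temperatures did not overlap in either mutant and overlapped in the wild type. The averaged log2 fold change was −0.46 ± 0.13 (adjusted p 0.00935, limma), and bbx18 bbx23 was called alone (−0.80 ± 0.22, adjusted p 0.024), which was lost without replicate 1 or 2 at 22 °C or replicate 1 or 3 at 29 °C of that genotype (adjusted p of up to 0.108). The difference of its warm response from that of the wild type, −0.73 ± 0.31, did not pass (adjusted p 1).

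Of the cytochrome b6f complex, which carries electrons between the photosystems, petA (cytochrome f) fell. In the wild type it was at 1.89, 1.95 and 1.62 FPKM at 22 °C and 0.91, 1.14 and 1.25 at 29 °C. In bbx18 bbx23 it was at 2.68, 1.26 and 1.18 FPKM and then 0.913, 0.682 and 0.754. In pif4 it was at 1.58, 2.44 and 1.32 FPKM and then 0.91, 0.511 and 0.204. The temperatures did not overlap in any genotype, and the averaged log2 fold change was −0.61 ± 0.12 (adjusted p 0.000713, limma). The filter was met by petA through libraries at 22 °C alone. The gene was called alone in pif4 (−0.86 ± 0.21, adjusted p 0.0116, limma). That call was lost without replicate 2 of pif4 at 22 °C or without replicate 3 at 29 °C in all genotypes. Rescaling to the same summed FPKM (adjusted p 0.0616, limma) and using only the libraries compared (adjusted p 0.0698, limma) ended it too. The other 2 named genes of the complex that were tested, petB and petD, were not called.

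The gene cemA, which encodes a chloroplast envelope membrane protein and lies just before petA on the plastid genome, fell as well. In pif4 it was at 4.62, 3.85 and 2.42 FPKM at 22 °C and 2.06, 1.12 and 1.22 at 29 °C, with no overlap. Over the genotypes it was at 3.30 ± 1.04 FPKM at 22 °C and 2.14 ± 0.889 at 29 °C (SD, n = 9), with overlap. The averaged log2 fold change was −0.46 ± 0.13 (adjusted p 0.0115, limma), and pif4 was called alone (−0.90 ± 0.23, adjusted p 0.0159). The pif4 call was lost without replicate 1 or 2 at 22 °C or replicate 2 at 29 °C of pif4 (adjusted p of up to 0.0856). The averaged call was lost without replicate 2 at 29 °C in all genotypes (adjusted p 0.0629, limma).

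No photosystem gene with a supported name was called. All 5 named genes of photosystem II were tested, and their median log2 fold change was 0.11. The most abundant, psbA, ran from 8.34 to 14.4 FPKM over the 9 libraries at 22 °C (median 12.7) and from 9.15 to 18.3 at 29 °C (median 12.8), which overlapped. The level of psbB, a chlorophyll-binding core antenna protein, was 4.74 ± 0.964 FPKM at 22 °C and 4.81 ± 0.821 at 29 °C (SD, n = 9). After rescaling to the same summed FPKM, where the median of all genes was 0.29, 4 of the 5 were called higher (psbA, psbB, psbC and psbD, psbA at 0.43). The share of all genes called higher there is not given here, so nothing particular to photosystem II is read from this count. Of photosystem I, psaB, a reaction centre protein, had a log2 fold change of −0.22 ± 0.13 (adjusted p 0.201, limma). None of the 9 tested rows of ribosomal proteins with a supported name was called, among them rpl2 at −0.06 ± 0.10. Nor were the 2 tested genes of the NADH dehydrogenase-like complex, of which ndhK was at 0.05 ± 0.09, or clpP, at −0.00 ± 0.11.

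The 2 named genes of the plastid RNA polymerase were too low for the filter. The more abundant was rpoC1, at a mean of 0.267 FPKM. With the filter replaced by a level above 0 in at least 9 libraries, 11 of the 69 plastid rows then tested were called in the averaged response. Among all genes tested, 34.9% were. Both genes that were added fell. One was rpoA, the alpha subunit (−0.20 ± 0.06, adjusted p 0.0126, limma). The other was rpl22, a ribosomal protein gene (−0.40 ± 0.12, adjusted p 0.0171). Both lie near the floor: the FPKM steps put 0 to 9.9 reads behind the values of rpoA and 0 to 8 behind those of rpl22.

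Among codes without a supported name, ATCG00190 was called lower in all 3 genotypes, but it passed the filter only through libraries at 22 °C, since its highest value at 29 °C was 0.647 FPKM. Wild-type libraries had 0.815, 1.67 and 1.09 FPKM at 22 °C and 0.204, 0.204 and 0.647 at 29 °C. In bbx18 bbx23 it was at 1.77, 1.49 and 0.992 FPKM and then 0.322, 0.534 and 0.310. In pif4 it was at 1.30, 1.66 and 1.02 FPKM and then 0.581, 0.474 and 0.184. All libraries at 29 °C were below all at 22 °C, and the averaged log2 fold change was −0.74 ± 0.11 (adjusted p 5.57e-05, limma). It was called in each genotype alone (−0.69, −0.79 and −0.72), and single libraries decided this: without wild type replicate 2 at 22 °C or replicate 1 or 2 at 29 °C, bbx18 bbx23 replicate 1 at 22 °C, or pif4 replicate 1 or 2 at 22 °C or replicate 3 at 29 °C, the call in that genotype was lost (adjusted p of up to 0.099). ATCG00070 rose by 0.97 ± 0.23 (adjusted p 0.00359, limma), but it passed the filter only through libraries at 29 °C. It was at 0 in 7 of the 9 libraries at 22 °C, where its highest value was 0.873 FPKM, and in 2 of the 9 at 29 °C. ATCG01020 was called in the wild type alone (1.84 ± 0.53, adjusted p 0.0288), from 1.71, 5.84 and 0 FPKM at 22 °C to 7.28, 9.98 and 8.33 at 29 °C. Leaving out any wild-type library but replicate 2 at 22 °C ended that call (adjusted p of up to 0.135).

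In the single genotypes, 3 of the 40 rows were called in the wild type (7.5%, where 14.2% of all genes tested were), 4 in bbx18 bbx23 (10%, against 13.6%) and 6 in pif4 (15%, against 13.2%). Only atpI and ATCG00190 were called in all 3, the latter being a row that passed the filter at 22 °C alone. The comparisons with each mutant share the wild-type libraries.

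**Figure D4:**
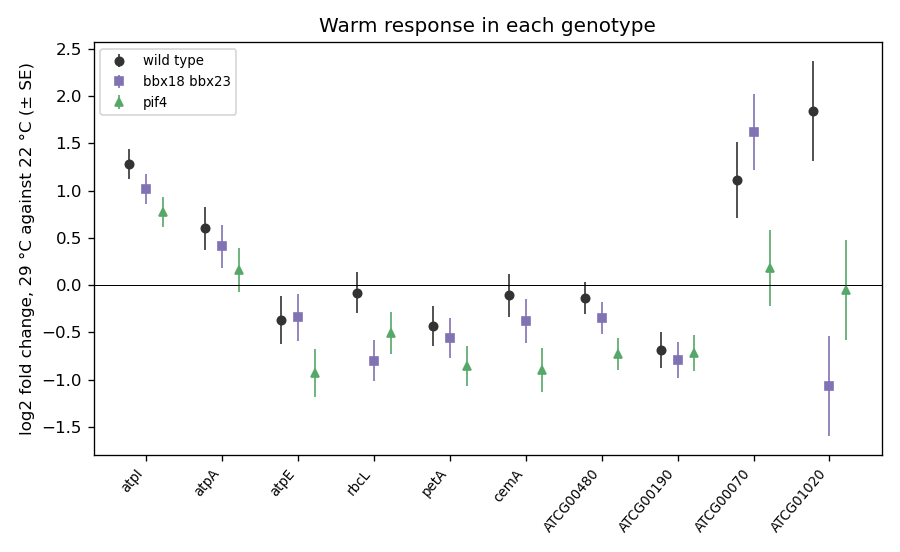
Log2 fold change at 29 °C against 22 °C with its standard error (vertical axis) in the wild type, bbx18 bbx23 and pif4 for the 10 called genes. The response of atpI is above 0 and that of ATCG00190 below 0 in each genotype, while ATCG01020 is at 1.84 in the wild type and −1.07 in bbx18 bbx23.

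No plastid row was called between a mutant and the wild type, and none in the differences of their warm responses. In bbx18 bbx23 against the wild type at 22 °C, 0 of 40 rows were called, where 0.0262% of all genes tested were, and 5 rows had an unadjusted p under 0.05. For pif4 at 22 °C the count was 0 (0.0209% of all genes), with 5 rows at an unadjusted p under 0.05. At 29 °C it was 0 for bbx18 bbx23 (0.0157% of all genes) and 0 for pif4 (0.136%), with 1 and 5 such rows. For the differences of warm response it was 0 for bbx18 bbx23 (0% of all genes) and 0 for pif4 (0.0157%), with 3 and 9 such rows. The smallest adjusted p was 0.703, for ATCG00480 at 29 °C in the comparison of pif4 with the wild type (−0.57 ± 0.17). These are limma counts, and they do not show that the levels were alike. For ATCG01020 the warm response in bbx18 bbx23 was lower than in the wild type by −2.91 ± 0.75 on the log2 scale, with an unadjusted p of 0.00136.

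Most of the nuclear genes for subunits of the same complexes were lower at 29 °C. Of 36, all tested, 34 fell and 1 rose at 29 °C in the averaged response, where 21.3% of all genes tested were lower and 17.3% higher. Their median log2 fold change was −1.03, while the median over the 40 plastid rows was −0.09. Many plastid rows lie near 1 FPKM, where log2(FPKM + 1) understates a change, so these medians are not like for like. The largest of these by p were PSAH2 and PSAK, both subunits of photosystem I, at −1.39 ± 0.09 (adjusted p 5.43e-09, limma) and −1.34 ± 0.08 (adjusted p 7.56e-09). ATPD, the delta subunit of the ATP synthase, was at −1.14 ± 0.09 and PSAO, of photosystem I, at −1.14 ± 0.09 (adjusted p 5.28e-08 and 1.09e-07), and PSAL, of photosystem I, at −1.31 ± 0.11 (adjusted p 2.58e-07). Of 20 nuclear genes for plastid transcription, 4 rose and 5 fell, shares near those of all genes tested, with a median of −0.14. Of 6 nuclear genes for plastid RNA decay, 3 fell and none rose, a count too small to set against the 21.3% lower among all genes. Among the 3 was CRB at −1.33 ± 0.09 (adjusted p 1.1e-08), an RNA-binding protein also called CSP41B. The difference between the plastid and nuclear sets was not tested.

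**Figure D5:**
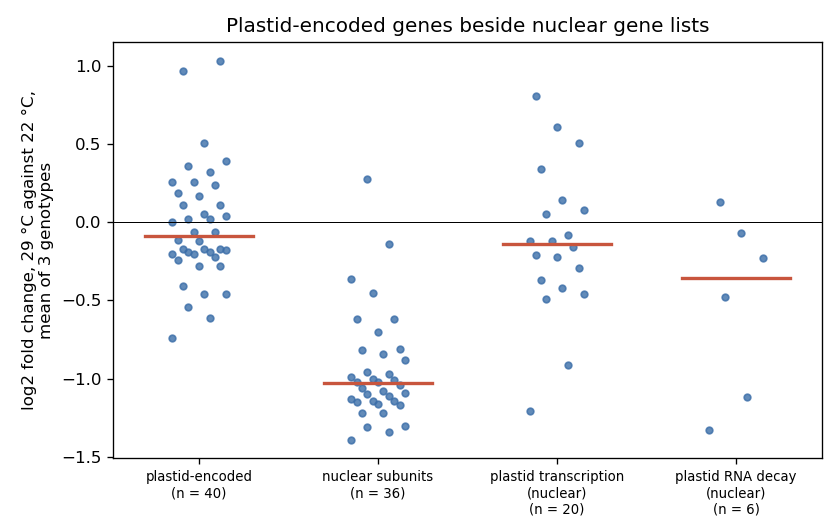
Log2 fold change at 29 °C against 22 °C averaged over genotypes (vertical axis) for the tested plastid-encoded rows and 3 lists of nuclear genes. Each point is a gene and each red line a median, at −0.09, −1.03, −0.14 and −0.35 from left to right. The log2(FPKM + 1) scale understates a change near 1 FPKM, where many plastid rows lie.

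Of 7 root markers, none was called in the averaged response, and their median log2 fold change was 0.02. Wild-type libraries had a summed level of 81.9 to 119 FPKM at 22 °C and of 85.7 to 146 at 29 °C. In bbx18 bbx23 it ran from 107 to 133 FPKM and from 112 to 139, and in pif4 from 127 to 175 and from 75.2 to 215. The part of tissue makeup in the changes above was not tested.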

How the data were processed

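RNA of 18 seedling libraries was sequenced, in 6 groups of 3. The authors deposited FPKM per gene for all libraries in 1 table, with 0 columns left without a sample. Alignment was with Bowtie 0.12.2 to mm8, per the submitters' processing notes. As mm8 is a mouse build, the sources used here leave the genome and annotation unnamed.

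The members and gene lists were chosen with earlier results of these data known. log2(FPKM + 1) was fitted with limma 3.58.1 (R 4.3.3) over 19116 genes, kept for reaching 1 FPKM in 3 or more libraries, with 1 coefficient per group, a variance trend and Benjamini-Hochberg adjustment within each of 10 contrasts. On simulated data without deviations shared by libraries, a change of 1 log2 was recovered for 93% of genes in the averaged warm response, with 6 false calls, and for 69.5% in the wild type, with 9.

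Read totals were not used here. FPKM steps of 10026 nuclear genes with 1 transcript were fitted as whole reads, with an average of 157.3 bases taken off the transcript length, which gave 17600000 to 32500000 reads per library. Of 129 plastid genes, 53 are shorter than that length. The same steps scored up to 87 plastid transcript lengths for each code. Of the 69 described codes, 65 had a score at the length of the listed gene. A name needed the best score, of at least 3, at the length of the gene in the standard locus list. The list was written from general knowledge, and the method and the threshold were settled after the scores were seen. The score reached 3 at another gene's length for 8 codes left unnamed, so length alone can mislead. Reference notes name 6 described codes, and the length of the listed gene fitted best for all 6. For ATCG00430, named ndhK here, the note reads photosystem II reaction center protein G, so it does not carry the name used. A blastn 2.17.0 search for copies required 90% identity and 50% of a gene.

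Named are the 20 described rows of highest mean FPKM, every row called in a contrast, the most abundant named row of each complex, and up to 6 called nuclear genes of smallest p. Replicate numbers paired libraries, by correlated deviations above 0.1 in all 3 pairs, between wild type and bbx18 bbx23 at 29 °C (0.70, 0.73 and 0.24) and between wild type and pif4 at 22 °C (0.50, 0.49 and 0.60), not across temperatures. The fit took all 18 libraries as separate, so where deviations were shared the averaged warm response can count too many independent libraries. The alternatives were other filters, pseudocounts, scalings, variance settings, replicate blocks and libraries left out. Figures were drawn with matplotlib 3.10.9.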

Additional observations from a re-analysis of the deposited data

How the results depend on the processing

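Under 31 alternatives, the call of atpI in the averaged warm response kept its direction and its side of the threshold. Those of petA, ATCG00190 and ATCG00070 did too, but these rows passed the filter only through the temperature at which they were high. Their unchanged calls are therefore not read as support. The counts called in the wild type, bbx18 bbx23 and pif4, 3, 4 and 6 as reported, were 5, 3 and 2 after rescaling to the same summed FPKM and 1, 8 and 1 with only the libraries compared. The pif4 calls of atpE, cemA, petA, ATCG00480 and ATCG00190 were lost under both settings. The bbx18 bbx23 call of rbcL was lost after rescaling. Leaving out libraries gave 8 to 10 called rows in the averaged response, 1 to 4 in the wild type, 2 to 8 in bbx18 bbx23 and 2 to 8 in pif4. A replicate block gave 9, 4, 4 and 6, and a block within temperature 10, 5, 4 and 6. Under the latter the averaged rise of atpF was called (0.51, adjusted p 0.0258, limma). A block within temperature takes deviations shared by same-numbered libraries out of the error, though they remain part of the temperature comparison. Its smaller p is therefore no added support for the rise of atpF. With no filter on low values 13 rows were called in the averaged response, from a larger set of tested rows. The counts in this paragraph stand without the share of all genes called in each setting. A change in a count is therefore not read as a change in the plastid response. The 0 counts for the mutants against the wild type stayed at 0 in every alternative.

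The log2 ratio of the plastid sum at 29 °C to that at 22 °C was 0.10 in the wild type, −0.58 in bbx18 bbx23 and 0.02 in pif4. As a share of all FPKM it was 0.39, −0.17 and 0.39, and without the 4 highest rows, an alternative chosen after seeing the data, −0.19 in bbx18 bbx23. With libraries left out it ran from −0.02 to 0.21, from −0.63 to −0.53 and from −0.14 to 0.28. The planned sum over protein-coding rows was not run.

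Genes that were not called changed sign under some settings. After rescaling, ATCG00920 was at 0.16, ATCG00950 at 0.07, clpP at 0.32 and rpl2 at 0.26, and clpP with size factors at 0.02. With a pseudocount of 0.1 atpH was at −0.18. With libraries left out psbA ran from −0.00 to 0.22, clpP from −0.08 to 0.07 (0.05 without bbx18 bbx23 replicate 3 at 22 °C), rpl2 from −0.11 to 0.01, atpH from −0.19 to 0.27 (−0.10 without wild type replicate 1 at 22 °C), psbB from −0.02 to 0.07 (−0.01 without replicate 3 at 29 °C in all genotypes) and ATCG00630 from −0.06 to 0.63. The cause was not tested.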

Other observations

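The 3 pif4 libraries at 29 °C did not deviate alike for all plastid genes, a pattern chosen after the values were seen and given with no test. Replicate 1 was the lowest for the 4 most abundant rows together (110 FPKM, against 298 and 282 in replicates 2 and 3), for psbA (9.15, against 18.3 and 15.8), for rbcL (2.93, against 5.88 and 5.03) and for psaB, a reaction centre protein of photosystem I (0.388, against 1.38 and 1.22). The same library was the highest of the 3 for atpE (9.97 FPKM, against 7.00 and 4.01), for ATCG00480 (15.3, against 11.6 and 9.41), for cemA (2.06, against 1.12 and 1.22) and for petA (0.91, against 0.511 and 0.204). For atpI replicates 1 and 2 were nearly level (4.21 and 4.18 FPKM) and replicate 3 was at 3.38.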
